A study of Homo sapiens with 18 samples.

Results

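The genes described are 39 of homologous recombination, the Fanconi anaemia pathway and, for POLQ, an error-prone end joining route. Homologous recombination repairs DNA double-strand breaks from a matching template, and the Fanconi pathway unhooks crosslinks between DNA strands. The genes were chosen by symbol from a list of pathway genes, with earlier results of these data known, so no test was run over the list. A row of the count table belonged to a gene when the row's Ensembl transcripts carried its symbol. All 39 were found among the 57736 rows of the table, and all 39 were among the 15318 rows with enough counts to test, with at least 12 counts in every library. RNA was measured in PEO1 cells, an established line of high-grade serous ovarian cancer. The series title describes its p53 as mutant, and the line is known for a truncating mutation in BRCA2.

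The cells were transfected with an siRNA against p53 (sip53) or with a control siRNA (siControl), and E2 (estradiol, 10 nM) was then given for 0, 2 or 8 h. The 6 groups held 3 samples each, giving 9 sip53 and 9 siControl libraries. Cells of every group were first held in phenol red-free medium with charcoal-stripped serum, and those of the 0 h groups got no E2. All groups came from the same line. The library names number all siControl libraries before all sip53 libraries, so the siRNAs cannot be told apart from that order. Loss of p53 and any other effect of the siRNA cannot be told apart in this design, nor can E2 and time in culture, since no untreated samples were taken at 2 or 8 h. Whether the 3 samples of a group were separate cultures is not stated in the labels, so the p-values rest on a spread between samples that could be technical.

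As background, repair by homologous recombination starts when the ends of a break are recognised and cut back to single strands. The single strands are first coated by the RPA trimer, and BRCA1, PALB2 and BRCA2 then prepare them to invade a matching sequence, which serves as the template. The Fanconi core complex senses a stalled, crosslinked fork and attaches ubiquitin to the FANCD2-FANCI pair, which calls in nucleases such as those held by SLX4. Loss of BRCA1 or BRCA2 function is a known feature of many high-grade serous ovarian cancers and the basis of their sensitivity to PARP inhibitors and platinum.

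Sequence from the start of 3 genes, picked by their results, is shown as description only. FANCB had the lowest sip53 to siControl ratio of the 39, RPA1 had the highest, and RBBP8 was called in the most E2 comparisons. Each sequence is 300 bases from RefSeq on GRCh38.p14, from 250 bases before to 50 bases after the annotated start, read 5′ to 3′ on the gene's own strand. Capitals mark GC boxes (GGGCGG on either strand) and CCAAT boxes (CCAAT on either strand). FANCB is at chrX:14873020-14873319 on the minus strand, RPA1 at chr17:1829755-1830054 on the plus strand and RBBP8 at chr18:22933078-22933377 on the plus strand.
FANCB: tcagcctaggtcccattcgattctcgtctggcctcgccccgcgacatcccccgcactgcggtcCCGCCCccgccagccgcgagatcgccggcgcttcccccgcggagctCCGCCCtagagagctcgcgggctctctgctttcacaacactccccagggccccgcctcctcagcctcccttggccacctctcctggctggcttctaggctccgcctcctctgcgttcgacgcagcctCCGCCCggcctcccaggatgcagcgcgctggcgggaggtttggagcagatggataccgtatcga
RPA1: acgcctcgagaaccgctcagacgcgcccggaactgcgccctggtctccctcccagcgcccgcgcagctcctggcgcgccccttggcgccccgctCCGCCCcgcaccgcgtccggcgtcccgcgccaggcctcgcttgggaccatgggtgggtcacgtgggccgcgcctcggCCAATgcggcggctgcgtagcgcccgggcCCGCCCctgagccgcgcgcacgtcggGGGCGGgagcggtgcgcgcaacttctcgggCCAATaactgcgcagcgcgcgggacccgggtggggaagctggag
RBBP8: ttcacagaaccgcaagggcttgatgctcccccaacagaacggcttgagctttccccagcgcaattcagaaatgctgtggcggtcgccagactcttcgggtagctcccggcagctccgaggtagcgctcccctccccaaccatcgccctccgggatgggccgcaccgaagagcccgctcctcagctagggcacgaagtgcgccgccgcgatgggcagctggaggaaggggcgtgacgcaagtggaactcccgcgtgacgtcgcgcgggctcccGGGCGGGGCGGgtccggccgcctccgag

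Promoters of 33 of the 39 genes were matched by symbol. Their median GC content was 64.7%, against 58.7% in all promoters, and the part of GC content in the motif shares below was not tested. GC boxes were found in 24 of them (72.7%), against 45.0% of all 35116 promoters of that length, and CCAAT boxes in 12 (36.4%), against 34.6%. An E2F site, spelled TTTCCCGC, TTTCGCGC, TTTGCCGC or TTTGGCGC on either strand, was found in 5 (15.2%), against 3.31% of all promoters. Those 5 were EXO1, FANCA, FANCC, FANCD2 and XRCC2. The CHR element TTTGAA, known from genes of the late cell cycle, was found in 4 (12.1%), against 15.2% of all. The full palindromic estrogen response element was found in 0, against 0.057% of all promoters. A CHR element and a CCAAT or E2F match can stand in the same window, and a match is a string of letters and not a site shown to be bound.

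Levels are given as CPM, counts scaled to library size, after TMM scaling. The libraries were read from the 3′ end of each transcript, so a count stands for a transcript end. Depth was 9225939 to 11307199 counts in sip53 libraries and 7542457 to 10132570 in siControl libraries. RPS27L, which p53 is known to activate, stood at 17.2 to 43.9 CPM in the sip53 libraries and 80.7 to 123 CPM in the siControl libraries. CDKN1A, the p53-activated cell cycle inhibitor, stood at 9.4 to 14.9 CPM in sip53 and 18.8 to 26.7 CPM in siControl libraries. Library sip53 0 h replicate 1 had the highest RPS27L of the sip53 libraries, at 43.9 CPM, against 17.2 and 21.8 CPM in the other 0 h sip53 libraries. Library siControl 0 h replicate 2 had the lowest depth of all and stood slightly farther from its group than the rest, with a root mean square deviation of 0.40 on the log2 scale, against 0.30 to 0.39 in the others. GREB1, a gene that estrogen receptor is known to activate, was higher at 8 h of E2 than at 0 h by 1.31 ± 0.33 (log2, SE, edgeR adjusted p = 0.0119, both siRNAs averaged). PGR, another such gene, had too few counts to test.

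The cells carried epithelial markers, with KRT18, KRT7 and KRT19 at means of 1640, 1580 and 1530 CPM. Markers of ovarian carcinoma were lower, with PAX8 at 118, MUC16 at 37.2, WFDC2 at 26.2, MSLN at 26 and WT1 at 11.3 CPM. The 13 epithelial and ovarian markers summed to 6350 to 7710 CPM in sip53 and 5130 to 5680 CPM in siControl libraries, so the sum was higher in every sip53 library than in any siControl library. Of the 12 with enough counts 6 were higher and 0 lower in sip53 cells averaged over the 3 times, against 16.1% and 18.5% of all genes. FOLR1, also on the list, averaged 0.0106 CPM. The 9 fibroblast markers summed to 100 to 159 CPM in sip53 and 119 to 138 CPM in siControl, with COL1A2, COL3A1, DCN and LUM at 0. Of the 3 with enough counts 1 was higher and 1 lower in sip53 cells averaged over the 3 times. COL1A1 was higher by 0.45 ± 0.15 (log2, SE, edgeR adjusted p = 0.0194). FAP was lower, at -0.49 ± 0.12 (log2, SE, edgeR adjusted p = 0.00223). The 8 leukocyte markers summed to 14.1 to 17.1 CPM in sip53 and 9.21 to 19.9 CPM in siControl, with PTPRC, CD3E and NKG7 at 0. The 2 with enough counts, CD14 and CD68, were not called in that comparison (edgeR adjusted p = 0.204 and 0.845). The 7 endothelial markers summed to 0.356 to 1.07 CPM in sip53 and 0 to 0.916 CPM in siControl. The part of the epithelial shift in the results on repair genes was not tested.

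The first question was which repair genes differ between sip53 and siControl cells when the 3 times are averaged. Of the 39 genes 24 changed (61.5%), against 34.6% of all genes tested, by edgeR's quasi-likelihood test at an adjusted p under 0.05. FANCB, RAD52 and BRCA2 had the lowest ratios, and the 3 RPA subunits, XRCC3, RAD54L and FANCG were the 6 that were higher. Lower calls numbered 18 (46.2% of the genes), against 18.5% of all genes tested. Higher calls numbered 6 (15.4%), against 16.1% of all genes, which is near the background. Changes are given below as log2 fold changes ± SE, with sip53 over siControl. The median log2 fold change was -0.15 over the 39 genes and 0.01 over all genes. Because the list was chosen with earlier results of these data known, these shares and medians are description only. In bulk RNA, fewer cells expressing a gene and less of its RNA per cell cannot be told apart.

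**Figure D1:**
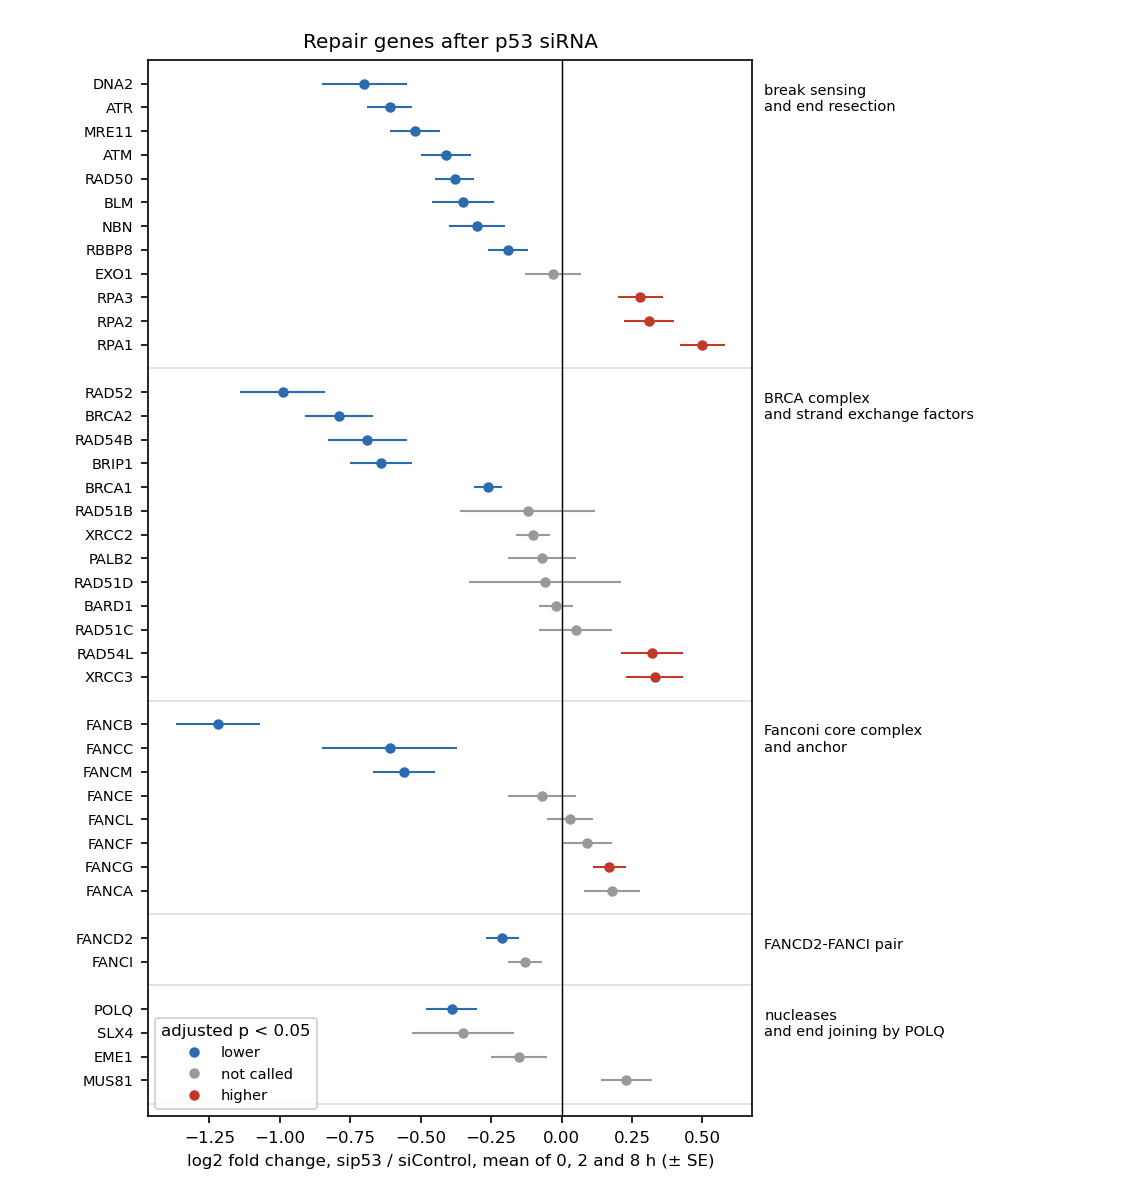
Log2 fold change of sip53 over siControl, averaged over 0, 2 and 8 h, for the 39 genes grouped by role. Points are edgeR estimates with bars of 1 SE, coloured by the call at an adjusted p under 0.05. FANCB lies farthest left at -1.22 and RPA1 farthest right at 0.50, and both directions occur in 3 of the role groups.

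At single times, with 3 samples against 3, fewer genes passed the test. At 0 h 8 genes were called (20.5%), against 9.12% of all genes tested. Of these 7 were lower (17.9%), against 5.14% of all genes, and 1 was higher (2.56%), against 3.98%. At 2 h of E2 10 were called (25.6%), against 12.2% of all, of which 9 were lower (23.1%), against 7.79% of all, and 1 was higher (2.56%), against 4.42%. At 8 h 6 were called (15.4%), against 8.96% of all. All 6 were lower, against 6.14% of all, and 0 were higher, against 2.81%. The median over the 39 genes was -0.27 at 0 h, -0.07 at 2 h and -0.18 at 8 h, against medians over all genes of 0.00, 0.00 and 0.01. RPA1 was the gene called higher at 0 and 2 h. At 8 h the higher count of 0 stands beside 17 of the 39 genes with an unadjusted p under 0.05 in either direction, against 3747 of all 15318. DESeq2 called 7 of the 39 at that time in either direction, against 1827 of all genes.

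The counts at single times moved with single libraries. At 0 h the count of 8 became 13, 2 and 1 without sip53 replicates 1, 2 and 3, and 12, 3 and 3 without siControl replicates 1, 2 and 3. At 2 h the count of 10 fell to 6 without siControl replicate 2 and lay between 7 and 12 without any other library. At 8 h the count of 6 became 0 without sip53 replicate 3 and 0 without siControl replicate 1. It was 3 without sip53 replicate 1, 1 without siControl replicate 2, 3 without siControl replicate 3 and 6 without sip53 replicate 2. The averaged count of 24 lay between 20 and 24 in all 18 fits with 1 library left out, and 19 of the 24 calls were kept in every one of them.

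The comparisons at the 3 times share no library. Fold changes were negative at all 3 times for 23 of 39 genes (59%), against 30.5% of all genes tested. They were positive at all 3 times for 8 of 39 (20.5%), against 30.8% of all. FANCB alone was called lower at all 3 times, 1 of 39 genes, against 2.72% of all genes. The 9 sip53 libraries lay wholly below the 9 siControl libraries for FANCB and BRCA1, against 1.63% of all genes, and wholly above them for RPA1, against 1.56% of all genes. In the single-time comparisons, all 3 sip53 samples lay below all 3 siControl samples for 10 genes at 0 h, 14 at 2 h and 13 at 8 h, against 11.9%, 18.1% and 14.9% of all genes. All 3 lay above for 5, 6 and 5 genes, against 12.6%, 15.1% and 14.6%.

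**Figure D2:**
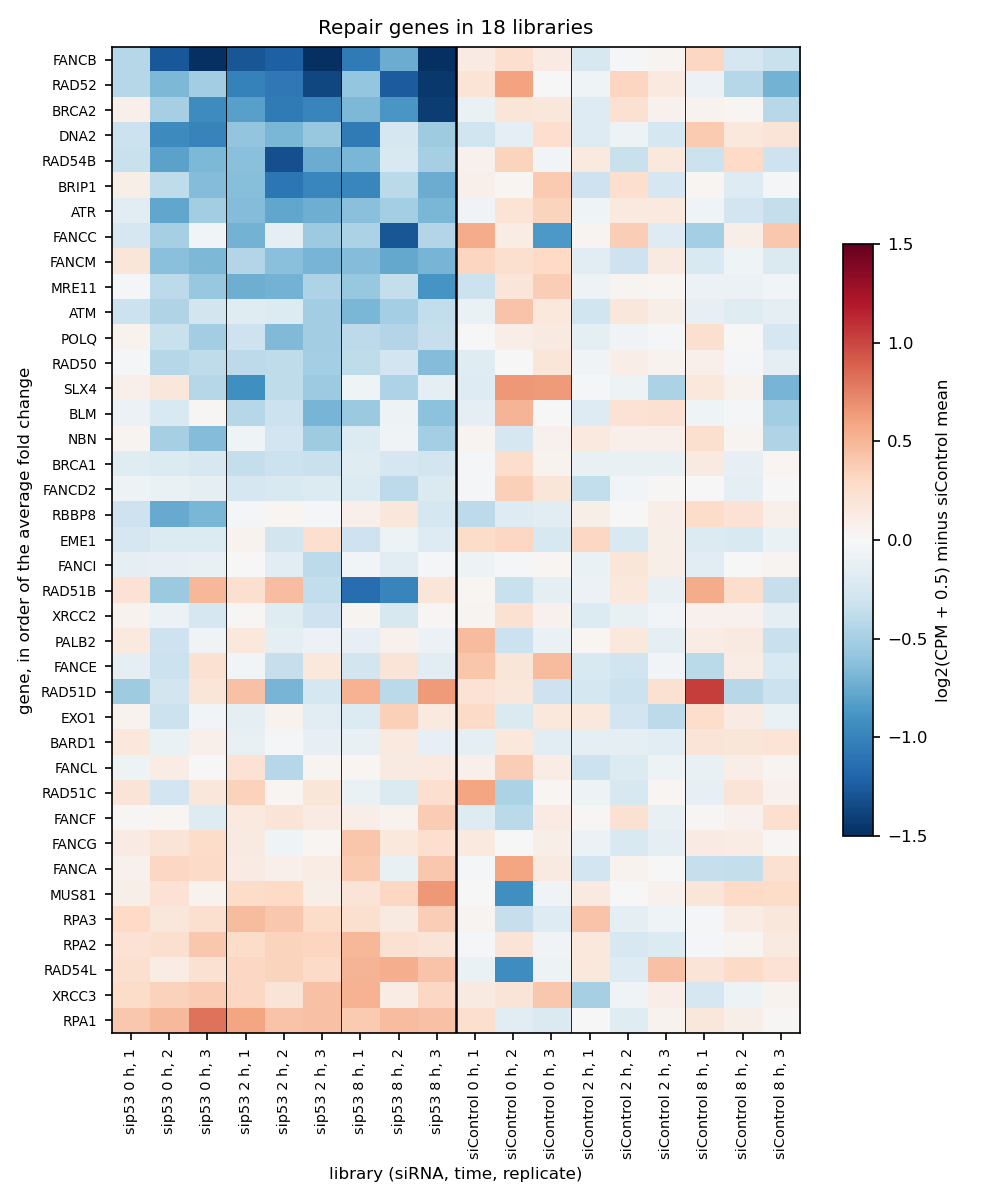
Level of the 39 genes in each of the 18 libraries, as log2(CPM + 0.5) minus the mean of the 9 siControl libraries, with blue for lower and red for higher and the scale ending at 1.5 in each direction. Rows run from the lowest to the highest averaged fold change, and the 9 sip53 libraries are on the left. The upper rows are mostly blue across the sip53 libraries, and several, such as FANCB, BRCA2 and BRIP1, are palest or faintly red in sip53 0 h replicate 1. In DNA2 and RAD54B sip53 8 h replicate 2 is palest, and in FANCC sip53 0 h replicate 3. The RPA1 row at the bottom is red across the sip53 libraries.

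Genes of break sensing and end resection were called in both directions. Of these 12 genes 8 were lower and 3 were higher in the averaged comparison, against 18.5% of all genes lower and 16.1% higher, with log2 fold changes from -0.70 to 0.50. The lower ones were MRE11, RAD50, NBN, RBBP8, DNA2, ATM, ATR and BLM. The higher ones were RPA1, RPA2 and RPA3. EXO1, a nuclease that resects long stretches, did not pass the test at -0.03 ± 0.10 (95% interval -0.23 to 0.16).

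ATR is the kinase that answers to RPA-coated single strands, at chr3:142449235-142578826 on GRCh38. It stood at 66.2, 42.9 and 51.1 CPM at 0 h in sip53 cells, at 46.8, 42.7 and 44.1 CPM at 2 h, and at 47.6, 51.8 and 45.5 CPM at 8 h. In siControl cells it stood at 70.9, 85.3 and 92.7 CPM at 0 h, 70.3, 81.6 and 81.5 CPM at 2 h, and 70.7, 60.5 and 57.2 CPM at 8 h. The groups did not overlap at any time, and sip53 0 h replicate 1 was the highest sip53 sample. The averaged log2 fold change was -0.61 ± 0.08, a ratio of 0.657 (edgeR adjusted p = 5.33e-06). By time it was -0.63 ± 0.14 at 0 h (edgeR adjusted p = 0.00706), -0.80 ± 0.14 at 2 h (edgeR adjusted p = 0.000865) and -0.38 ± 0.14 at 8 h, where it did not pass (edgeR adjusted p = 0.0843). The call at 0 h was lost when sip53 0 h replicate 2 was left out (edgeR adjusted p = 0.0526). It was also lost with only the groups compared (edgeR adjusted p = 0.0637).

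ATM, the kinase that MRE11, RAD50 and NBN switch on at a break, stood at 16.5, 15 and 17 CPM at 0 h in sip53 cells, 18.2, 17.9 and 14.3 CPM at 2 h, and 12.7, 14.4 and 16.0 CPM at 8 h. The siControl samples held 19.3, 28.0 and 23.3 CPM at 0 h, 16.8, 23.5 and 22.0 CPM at 2 h, and 19.0, 18.3 and 18.7 CPM at 8 h. The groups were apart at 0 and 8 h and overlapped at 2 h. Averaged over the times ATM fell by 0.41 ± 0.09 on the log2 scale (edgeR adjusted p = 0.00175). At 0 h it fell by 0.54 ± 0.16 (edgeR adjusted p = 0.0409), a call kept in 1 of 6 fits with a library left out and weakest without siControl 0 h replicate 2, the sample with 28.0 CPM (edgeR adjusted p = 0.193). It was also lost with no filter, with length and GC trends removed and with only the groups compared.

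MRE11, RAD50 and NBN form the complex that binds and trims broken ends. MRE11, its nuclease, stood at 90.3, 69.6 and 62.0 CPM at 0 h in sip53 cells, 55.2, 55.9 and 66.7 CPM at 2 h, and 61.8, 71.5 and 49.4 CPM at 8 h. With siControl it stood at 73.4, 104 and 119 CPM at 0 h, 87.2, 94.7 and 93.6 CPM at 2 h, and 86.3, 86.2 and 89.0 CPM at 8 h. The groups were apart at 2 and 8 h and overlapped at 0 h, where sip53 replicate 1 lay above siControl replicate 1. Its averaged change was -0.52 ± 0.09 (edgeR adjusted p = 0.00012). RAD50, the ATPase of the complex, ran from 125 to 192 CPM (median 150) over the 9 sip53 samples and from 173 to 222 CPM (median 196) over the 9 siControl samples, with a change of -0.38 ± 0.07 (edgeR adjusted p = 0.000165). The last exon of RAD50 overlaps the protein-coding gene AC116366.3 on the same strand and TH2LCRR on the other, so its counts are uncertain. NBN, the adaptor of the complex, ran from 33.0 to 53.7 CPM (median 42.7) in sip53 and from 38.2 to 61.9 CPM (median 54.7) in siControl samples, a change of -0.30 ± 0.10 (edgeR adjusted p = 0.0255). The NBN call was kept in 12 of the 18 fits with 1 library left out, and was weakest without siControl 8 h replicate 1 (edgeR adjusted p = 0.0704). MRE11 and RAD50 were called at 2 and 8 h and not at 0 h. With 1 library left out, both 2 h calls were kept in 4 of 6 fits, and the 8 h calls in 1 of 6 for MRE11 and 2 of 6 for RAD50. All 4 calls were lost with length and GC trends removed (edgeR adjusted p = 0.0501 and 0.12 for MRE11, 0.059 and 0.121 for RAD50).

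DNA2 is a nuclease that works with the helicase BLM in long-range resection. DNA2 ran from 3.47 to 6.42 CPM (median 4.98) in sip53 and from 6.21 to 10.3 CPM (median 7.33) in siControl samples, with an averaged change of -0.70 ± 0.15 (edgeR adjusted p = 0.000885). At a single time it was called at 8 h, at -0.89 ± 0.25 (edgeR adjusted p = 0.0312), a call kept in 1 of 6 fits with a library left out and weakest without sip53 8 h replicate 1 (edgeR adjusted p = 0.141). BLM ran from 16.3 to 27.1 CPM (median 21.3) in sip53 and from 18.5 to 38.4 CPM (median 26.2) in siControl samples, with a change of -0.35 ± 0.11 (edgeR adjusted p = 0.0168). Its call at 2 h was lost with either other scaling (RLE or upper quartile) and with length and GC trends removed. It was kept in 1 of 6 fits with a library left out and was weakest without sip53 2 h replicate 3 (edgeR adjusted p = 0.213).

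RPA1, RPA2 and RPA3 are the subunits of the trimer that coats single-stranded DNA, and all 3 were higher in sip53 cells. RPA1, at chr17:1829702-1900082, stood at 36.9, 39.1 and 49.1 CPM at 0 h in sip53 cells, 41.9, 37.4 and 37.6 CPM at 2 h, and 36.6, 38.4 and 37.6 CPM at 8 h. In siControl cells it stood at 33.0, 24.6 and 23.8 CPM at 0 h, 27.6, 24.3 and 28.7 CPM at 2 h, and 31.2, 29.6 and 28.0 CPM at 8 h. The lowest of the 9 sip53 samples, at 36.6 CPM, was above the highest of the 9 siControl samples, at 33.0 CPM. The averaged change was 0.50 ± 0.08, a ratio of 1.41 (edgeR adjusted p = 4.29e-05). By time it was 0.61 ± 0.14 at 0 h (edgeR adjusted p = 0.00885), 0.54 ± 0.14 at 2 h (edgeR adjusted p = 0.0124) and 0.34 ± 0.14 at 8 h, where it did not pass (edgeR adjusted p = 0.113). The 0 h call was kept in 4 of 6 fits with a library left out and was weakest without sip53 0 h replicate 3, the sample with 49.1 CPM (edgeR adjusted p = 0.0823). It was lost with only the groups compared (edgeR adjusted p = 0.0844). The 2 h call was kept in 4 of 6 and was weakest without siControl 2 h replicate 2 (edgeR adjusted p = 0.0711).

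RPA2 ran from 18 to 22.3 CPM (median 19.0) in sip53 and from 13.2 to 18 CPM (median 15.5) in siControl samples, so the arms met at 18 CPM. Its averaged change was 0.31 ± 0.09 (edgeR adjusted p = 0.00754). RPA3 ran from 37.5 to 47.9 CPM (median 41.5) in sip53 and from 26.9 to 46.1 CPM (median 33.7) in siControl samples, with a change of 0.28 ± 0.08 (edgeR adjusted p = 0.00805). The sample that carried siControl into the sip53 range was 2 h replicate 1, at 46.1 CPM. All 3 subunits kept their averaged call in every fit with 1 library left out.

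**Figure D3:**
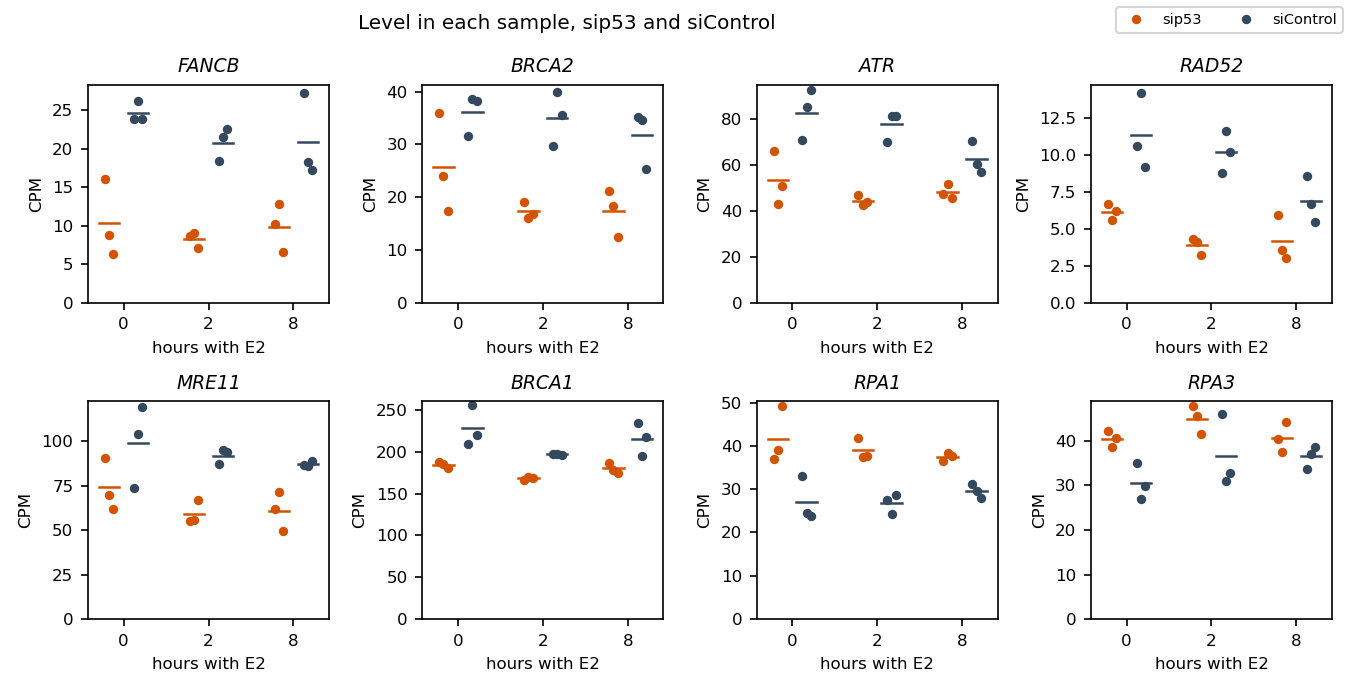
CPM in each sample against hours with E2 for 8 genes, with sip53 samples left of siControl samples at each time. Short lines are means of 3 samples. FANCB and BRCA1 separate the arms downward and RPA1 upward in all 9 samples of each, and the first sip53 0 h sample of FANCB, BRCA2, ATR and MRE11 is the highest of its group.

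In the group that holds the BRCA complex and the factors that act at strand exchange, 5 of 13 genes were lower, against 18.5% of all genes, and 2 were higher, against 16.1%, in the averaged comparison. The higher share is near that of all genes. BRCA2, BRIP1, RAD52, RAD54B and BRCA1 were lower, and XRCC3 and RAD54L were higher. The other 6 did not pass the test.

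BRCA2, which readies single strands for invasion of the template, is at chr13:32315474-32400266. It stood at 35.9, 24.0 and 17.4 CPM at 0 h in sip53 cells, 19.1, 16.1 and 16.9 CPM at 2 h, and 21.1, 18.4 and 12.4 CPM at 8 h. The siControl samples held 31.7, 38.6 and 38.2 CPM at 0 h, 29.7, 40.0 and 35.5 CPM at 2 h, and 35.3, 34.6 and 25.3 CPM at 8 h. The groups were apart at 2 and 8 h and overlapped at 0 h through sip53 replicate 1. The averaged change was -0.79 ± 0.12, a ratio of 0.578 (edgeR adjusted p = 3.64e-05). It was -0.49 ± 0.21 at 0 h, which did not pass (edgeR adjusted p = 0.144), -1.01 ± 0.21 at 2 h (edgeR adjusted p = 0.00386) and -0.87 ± 0.21 at 8 h (edgeR adjusted p = 0.0131). The 2 h call was kept with each library left out, and the 8 h call was kept in 3 of 6, and was weakest without sip53 8 h replicate 3 (edgeR adjusted p = 0.108).

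BRCA1, the ubiquitin ligase that pairs with BARD1, is at chr17:43044295-43170245. It stood at 188, 185 and 180 CPM at 0 h in sip53 cells, 166, 170 and 168 CPM at 2 h, and 187, 178 and 175 CPM at 8 h. With siControl it stood at 209, 256 and 220 CPM at 0 h, 197, 197 and 196 CPM at 2 h, and 234, 195 and 217 CPM at 8 h. The highest sip53 sample, at 188 CPM, was below the lowest siControl sample, at 195 CPM. The step was small beside that of BRCA2: the averaged change was -0.26 ± 0.05, a ratio of 0.832 (edgeR adjusted p = 0.000414). At 0 h it was -0.31 ± 0.09 (edgeR adjusted p = 0.0351), a call kept in 2 of 6 fits with a library left out and weakest without siControl 0 h replicate 2, the sample with 256 CPM (edgeR adjusted p = 0.19). It was also lost with no filter, with length and GC trends removed and with only the groups compared.

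The partners of BRCA1 and BRCA2 differed among themselves. BARD1 ran from 52.2 to 63.6 CPM (median 53.4) in sip53 and from 50.9 to 65.7 CPM (median 52.0) in siControl samples, a change of -0.02 ± 0.06 that did not pass (95% interval -0.15 to 0.10). PALB2, the bridge between BRCA1 and BRCA2, stood at 13.2, 9.42 and 11.4 CPM at 0 h in sip53 cells, 13.3, 10.7 and 11.1 CPM at 2 h, and 10.8, 12.4 and 11.1 CPM at 8 h. In siControl cells PALB2 stood at 16.6, 9.37 and 11 CPM at 0 h, 12.1, 13.3 and 10.6 CPM at 2 h, and 12.8, 13 and 9.32 CPM at 8 h. Its groups overlapped at every time, and its averaged change was -0.07 ± 0.12 (95% interval -0.30 to 0.17). BRIP1, a helicase that binds BRCA1, ran from 15.4 to 35.2 CPM (median 21.0) in sip53 and from 26.7 to 43.5 CPM (median 33.9) in siControl samples, with a change of -0.64 ± 0.11 (edgeR adjusted p = 0.000119). The BRIP1 sample at 35.2 CPM was sip53 0 h replicate 1.

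RAD52, which anneals single strands, is at chr12:912077-990053. It stood at 6.69, 5.57 and 6.22 CPM at 0 h in sip53 cells, 4.27, 4.11 and 3.25 CPM at 2 h, and 5.96, 3.55 and 3.04 CPM at 8 h. In siControl cells it stood at 10.6, 14.2 and 9.16 CPM at 0 h, 8.74, 11.6 and 10.2 CPM at 2 h, and 8.58, 6.68 and 5.43 CPM at 8 h. The groups were apart at 0 and 2 h and overlapped at 8 h. Its averaged change was -0.99 ± 0.15, a ratio of 0.502 (edgeR adjusted p = 3.01e-05). At 2 h it was -1.39 ± 0.26 (edgeR adjusted p = 0.00194), which was kept with each library left out. At 0 h it was -0.88 ± 0.26 (edgeR adjusted p = 0.0346), a call kept in 3 of 6 fits with a library left out and weakest without siControl 0 h replicate 2 (edgeR adjusted p = 0.158). That call was also lost with only the groups compared (edgeR adjusted p = 0.0801). At 8 h the change was -0.71 ± 0.27 and did not pass (edgeR adjusted p = 0.0936).

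RAD54L and RAD54B are related motor proteins that act on DNA at strand exchange, and they moved in opposite directions. RAD54B ran from 4.84 to 10.9 CPM (median 7.88) in sip53 and from 10.1 to 16.4 CPM (median 13.5) in siControl samples, a change of -0.69 ± 0.14 (edgeR adjusted p = 0.000417). RAD54L ran from 14 to 19.0 CPM (median 16.1) in sip53 and from 6.54 to 17.6 CPM (median 14.5) in siControl samples, a change of 0.32 ± 0.11 (edgeR adjusted p = 0.0281). The lowest RAD54L value, 6.54 CPM, was in siControl 0 h replicate 2. The RAD54L call was lost without that library (edgeR adjusted p = 0.053) and without siControl 2 h replicate 2 (edgeR adjusted p = 0.0622), and the RAD54B call was kept in all 18. The last exon of RAD54L overlaps LRRC41 on the other strand, and that of RAD54B overlaps FSBP on the same strand, and no source used here states whether strand was used in counting, so both are uncertain.

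RAD51B, RAD51C, RAD51D, XRCC2 and XRCC3 belong to 1 family and act at strand exchange, and of these 5 genes 1 passed the test, against 34.6% of all genes. XRCC3 ran from 15.8 to 21.2 CPM (median 18.2) in sip53 and from 10.2 to 19.4 CPM (median 15.2) in siControl samples, a change of 0.33 ± 0.10 (edgeR adjusted p = 0.01). XRCC2 had a change of -0.10 ± 0.06 (95% interval -0.23 to 0.02) and RAD51C one of 0.05 ± 0.13 (95% interval -0.20 to 0.29). RAD51B, from 1.33 to 5.45 CPM over the 18 libraries, had a change of -0.12 ± 0.24 (95% interval -0.59 to 0.34). RAD51D, from 1.47 to 6.03 CPM, had one of -0.06 ± 0.27 (95% interval -0.59 to 0.47). The intervals of RAD51B and RAD51D hold the value seen for MRE11, so a change of that size is not excluded for them at this depth.

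The Fanconi core complex and its anchor held the gene with the lowest ratio of all 39. Of its 8 genes 3 were lower (FANCB, FANCM and FANCC) and 1 was higher (FANCG) in the averaged comparison, against 18.5% of all genes lower and 16.1% higher. FANCA, FANCE, FANCF and FANCL did not pass.

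FANCB, a core subunit that sits with FANCL in the part of the complex that carries the ubiquitin ligase, is X-linked, at chrX:14835961-14873069. It stood at 16.1, 8.78 and 6.32 CPM at 0 h in sip53 cells, 8.71, 9.06 and 7.04 CPM at 2 h, and 10.2, 12.8 and 6.55 CPM at 8 h. The siControl samples held 23.9, 26.2 and 23.8 CPM at 0 h, 18.4, 21.5 and 22.5 CPM at 2 h, and 27.3, 18.3 and 17.2 CPM at 8 h. The highest sip53 sample, 0 h replicate 1 at 16.1 CPM, was below the lowest siControl sample at 17.2 CPM. The averaged change was -1.22 ± 0.15, a ratio of 0.43 (edgeR adjusted p = 2.99e-06). It was -1.24 ± 0.26 at 0 h (edgeR adjusted p = 0.00621), -1.33 ± 0.26 at 2 h (edgeR adjusted p = 0.00248) and -1.08 ± 0.26 at 8 h (edgeR adjusted p = 0.0116). The 2 h call was kept with each library left out. The 0 h call was lost without sip53 0 h replicate 3 (edgeR adjusted p = 0.0548), and the 8 h call was kept in 4 of 6, with the highest adjusted p without siControl 8 h replicate 1 (edgeR adjusted p = 0.102).

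FANCM, the motor protein that anchors the core complex on DNA, ran from 9.01 to 17.8 CPM (median 9.78) in sip53 and from 12.5 to 19.7 CPM (median 14.9) in siControl samples. Its averaged change was -0.56 ± 0.11 (edgeR adjusted p = 0.00062), and the sip53 sample at 17.8 CPM was 0 h replicate 1. At 0 h it was called at -0.62 ± 0.20 (edgeR adjusted p = 0.0478), and that call was kept in 1 of 6 fits with a library left out. It was also lost with length and GC trends removed and with only the groups compared (edgeR adjusted p = 0.066 and 0.155). FANCC ran from 1.15 to 3.42 CPM (median 2.40) in sip53 and from 1.71 to 5.41 CPM (median 3.79) in siControl samples, a change of -0.61 ± 0.24 (edgeR adjusted p = 0.0481). That call was kept in 6 of the 18 fits with 1 library left out, and DESeq2 gave an adjusted p of 0.0555. A further row of the table, of 1 transcript that lies upstream of the other FANCC transcripts, was also named FANCC and is not among the 39. It had a change of -0.62 ± 0.20 (edgeR adjusted p = 0.0211).

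FANCG ran from 36.6 to 51.3 CPM (median 42.9) in sip53 and from 32.5 to 42.4 CPM (median 38.8) in siControl samples, a change of 0.17 ± 0.06 (edgeR adjusted p = 0.0318) that was kept in 12 of 18 fits with a library left out. FANCA, the subunit most often mutated in Fanconi anaemia, had a change of 0.18 ± 0.10 (95% interval -0.03 to 0.38). FANCE had one of -0.07 ± 0.12 (95% interval -0.31 to 0.17) and FANCF one of 0.09 ± 0.09 (95% interval -0.08 to 0.26). FANCL, the ubiquitin ligase itself, had a change of 0.03 ± 0.08 (95% interval -0.14 to 0.19), while its partner FANCB was lower. The last exons of FANCA, FANCF and FANCL overlap ZNF276, GAS2 and VRK2 on the other strand.

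FANCD2 and FANCI are the pair that the core complex marks with ubiquitin. FANCD2 stood at 121, 119 and 116 CPM at 0 h in sip53 cells, 107, 108 and 110 CPM at 2 h, and 110, 96.9 and 109 CPM at 8 h. With siControl it stood at 125, 163 and 144 CPM at 0 h, 98.1, 124 and 129 CPM at 2 h, and 128, 115 and 128 CPM at 8 h. The groups were apart at 0 and 8 h and overlapped at 2 h, and the averaged change was -0.21 ± 0.06 (edgeR adjusted p = 0.0132). FANCI stood at 58.1, 58.5 and 59.4 CPM at 0 h in sip53 cells, 63.9, 57.0 and 48.7 CPM at 2 h, and 62.3, 57.0 and 62.9 CPM at 8 h. In siControl cells it stood at 60.7, 63.4 and 65.2 CPM at 0 h, 59.9, 72.8 and 68.1 CPM at 2 h, and 56.7, 64.5 and 65.9 CPM at 8 h. FANCI groups were apart at 0 h, and its averaged change of -0.13 ± 0.06 did not pass (edgeR adjusted p = 0.12, 95% interval -0.25 to 0.00). A copy of FANCD2 exists as a pseudogene, and the last exon of FANCI overlaps POLG on the other strand.

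Among the nucleases and POLQ, 1 of 4 genes was lower, against 18.5% of all genes. POLQ, the polymerase of an error-prone end joining route that cells without homologous recombination lean on, ran from 13.2 to 22.1 CPM (median 16.0) in sip53 and from 17.8 to 25.2 CPM (median 21.2) in siControl samples. Its change was -0.39 ± 0.09 (edgeR adjusted p = 0.00223). SLX4, the scaffold for several nucleases, had a change of -0.35 ± 0.18 (95% interval -0.69 to 0.00). MUS81 and EME1 make up a nuclease that cuts branched DNA, and had changes of 0.23 ± 0.09 (edgeR adjusted p = 0.0622) and -0.15 ± 0.10 (edgeR adjusted p = 0.298).

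The direction of change moved with the base composition of the transcripts, in these genes and in all genes. Over all genes tested, split into 5 equal bins by GC content of the longest transcript, the median averaged log2 fold change was -0.14, -0.07, -0.02, 0.09 and 0.14 from the lowest to the highest GC. The share called lower was 33%, 25%, 19%, 10.9% and 5.02% in the same order. The 39 genes lie mostly at the low end, with 14, 11, 7, 4 and 3 of them in the 5 bins, of which 11, 5, 2, 0 and 0 were lower. The 18 lower genes had a median GC content of 39.6% and a median longest transcript of 5653 bases. The 15 genes that did not pass had 43.5% and 3473 bases, and the 6 higher genes had 50.7% and 2869.5 bases. In the lowest bin 78.6% of the repair genes were lower, against 33% of all genes there, and in the next 45.5%, against 25%.

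When the trend with transcript length and GC content was removed from each library before the fit, 15 of the 39 genes were called in place of 24. Of these 12 were lower (30.8%), against 17% of all genes, and 3 were higher (7.69%), against 14.6%. The median over the 39 genes was then -0.13, against -0.01 over all genes. The 12 lower genes were MRE11, RAD50, DNA2, ATR, BRCA2, BRIP1, RAD52, RAD54B, FANCB, FANCC, FANCM and POLQ, and the 3 higher genes were RPA1, RPA2 and RPA3. The calls of NBN, RBBP8, ATM, BLM, BRCA1, FANCD2, XRCC3, RAD54L and FANCG were lost, and none of the 24 changed sign. BRCA1 then had a change of -0.13 (edgeR adjusted p = 0.0673) and ATM one of -0.18 (edgeR adjusted p = 0.138), while FANCB had -1.11 (edgeR adjusted p = 4.47e-06), RAD52 -1.03 (edgeR adjusted p = 2.34e-05) and RPA1 0.50 (edgeR adjusted p = 2.67e-05).

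**Figure D4:**
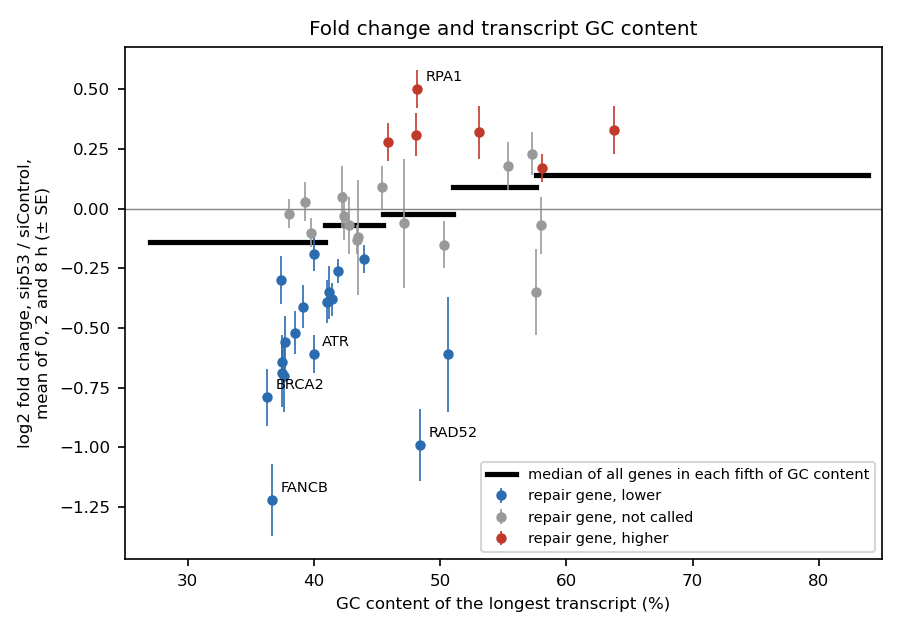
Averaged log2 fold change of sip53 over siControl against the GC content of the longest transcript for the 39 genes, with bars of 1 SE and colours by call. Black lines are the medians of all genes in each of 5 bins of GC content. The medians step up from -0.14 to 0.14, and FANCB, RAD52, BRCA2 and RPA1 lie far from the line of their own bin.

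Levels of cell cycle genes were set beside these results, since many repair genes are known to be made in S phase. Of 32 replication genes 7 were higher and 4 were lower in the averaged comparison, against 16.1% and 18.5% of all genes, with a median of 0.05. Of 24 mitosis genes 3 were higher and 7 lower, beside the same shares of all genes, with a median of -0.07. E2F1, a driver of S phase genes, was higher by 0.40 ± 0.07 (edgeR adjusted p = 0.000113). POLA1, the catalytic subunit of polymerase alpha, was lower, at -0.67 ± 0.10 (edgeR adjusted p = 2.81e-05). The part of the cell cycle in the results on repair genes was not tested.

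Other genes of the same pathways, 32 outside the 39, also held calls in both directions. Of these 10 were lower and 4 were higher, against 18.5% and 16.1% of all genes, with a median of -0.10. WRN, a helicase of the same family as BLM, was lower, at -0.81 ± 0.08 (edgeR adjusted p = 2.05e-07). GEN1, a nuclease that cuts Holliday junctions, was lower, at -0.81 ± 0.10 (edgeR adjusted p = 1.68e-06), and so was FAN1, a nuclease that FANCD2 calls in, at -0.64 ± 0.10 (edgeR adjusted p = 2.2e-05). RECQL, a related helicase, was lower, at -0.46 ± 0.08 (edgeR adjusted p = 8.17e-05). CENPX, a partner of FANCM, was higher by 0.46 ± 0.06 (edgeR adjusted p = 1.08e-05). SLX1A, the nuclease that SLX4 holds, was higher by 0.47 ± 0.07 (edgeR adjusted p = 3.5e-05), but has the near-identical copy SLX1B and is uncertain. SWI5, which acts at strand exchange, and RMI2, a partner of BLM, were higher by 0.27 ± 0.08 and 0.23 ± 0.08 (edgeR adjusted p = 0.016 and 0.0399).

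The second question was whether E2 alters these genes. With both siRNAs averaged, 1 gene (2.56%) was called at 2 h against 0 h, against 1.34% of all genes. It was higher, against 0.881% of all genes, and 0 were lower, against 0.464%. At 8 h against 0 h 4 were called (10.3%), against 9.6% of all genes. Of these 3 were higher (7.69%), against 5.16% of all genes, and 1 was lower (2.56%), against 4.44%. The 8 h shares are near the background, and the 2 h share is 1 gene. The median over the 39 genes was -0.12 at 2 h and -0.07 at 8 h, against -0.01 over all genes at both times.

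RBBP8, called at both times, encodes CtIP, the factor that starts resection by prompting the MRE11 nuclease. In sip53 cells RBBP8 stood at 153, 113 and 118 CPM at 0 h, 187, 195 and 186 CPM at 2 h, and 201, 214 and 159 CPM at 8 h. The siControl samples held 145, 167 and 169 CPM at 0 h, 203, 190 and 204 CPM at 2 h, and 231, 221 and 200 CPM at 8 h. Every E2-treated sample was above every 0 h sample of the same siRNA. Other genes of the 39 also had groups apart in single E2 comparisons, in both directions. The share of all genes with E2 groups apart was not counted, so the separation is description only. Averaged over both siRNAs the change was 0.44 ± 0.08 at 2 h (edgeR adjusted p = 0.00706) and 0.51 ± 0.08 at 8 h (edgeR adjusted p = 0.000296), and both calls were kept with each of 12 libraries left out.

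Within sip53 cells RBBP8 was the gene called at each time, 1 of 39 (2.56%), against 0.307% of all genes at 2 h and 2.74% at 8 h. It was higher at both, against 0.268% and 1.55% of all genes, and 0 were lower, against 0.0392% and 1.18%. The change was 0.56 ± 0.12 at 2 h (edgeR adjusted p = 0.0339) and 0.58 ± 0.12 at 8 h (edgeR adjusted p = 0.00617). Within siControl cells 0 of 39 genes were called by edgeR at 2 h, against 0.228% of all genes, with 9 of the 39 at an unadjusted p under 0.05, against 1748 of all 15318, and 0 called by DESeq2, against 119 of all genes. RBBP8 there had a change of 0.31 ± 0.12 that did not pass (edgeR adjusted p = 0.32). At 8 h in siControl cells RBBP8 was again the gene called, against 2.6% of all genes, with a change of 0.44 ± 0.12 (edgeR adjusted p = 0.0444). It was higher, against 1.78% of all genes, and 0 were lower, against 0.823%. The 8 h call in siControl cells was lost with each of the 6 libraries left out in turn, with adjusted p up to 0.156 without siControl 8 h replicate 2. The 2 h call in sip53 cells was kept in 1 of 6 such fits and the 8 h call in 4 of 6. RBBP8 was slightly lower in sip53 than in siControl cells over the 3 times, at -0.19 ± 0.07 (edgeR adjusted p = 0.03), a call kept in 9 of 18 fits and weakest without sip53 0 h replicate 2 (edgeR adjusted p = 0.0828). A pseudogene copy of RBBP8 exists.

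The other genes called at 8 h of E2 were less firm. MUS81 stood at 63.2, 69.5 and 61.8 CPM at 0 h in sip53 cells, 72.0, 73.2 and 63.4 CPM at 2 h, and 68.0, 73.8 and 93.5 CPM at 8 h. With siControl it stood at 59.7, 31.3 and 57.3 CPM at 0 h, 65.3, 59.6 and 62.0 CPM at 2 h, and 67.7, 73.6 and 72.4 CPM at 8 h. Its averaged 8 h change was 0.40 ± 0.11 (edgeR adjusted p = 0.0282), kept in 8 of 12 fits with a library left out and weakest without sip53 8 h replicate 3 (edgeR adjusted p = 0.092). RAD54L rose by 0.43 ± 0.13 (edgeR adjusted p = 0.0422), kept in 2 of 12 fits and weakest without siControl 0 h replicate 2 (edgeR adjusted p = 0.11). RAD52 fell by 0.64 ± 0.18 (edgeR adjusted p = 0.0307), kept in 5 of 12 fits and weakest without sip53 8 h replicate 3 (edgeR adjusted p = 0.0883). In a fit to only the 4 groups compared, RBBP8 was the 1 gene called.

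**Figure D5:**
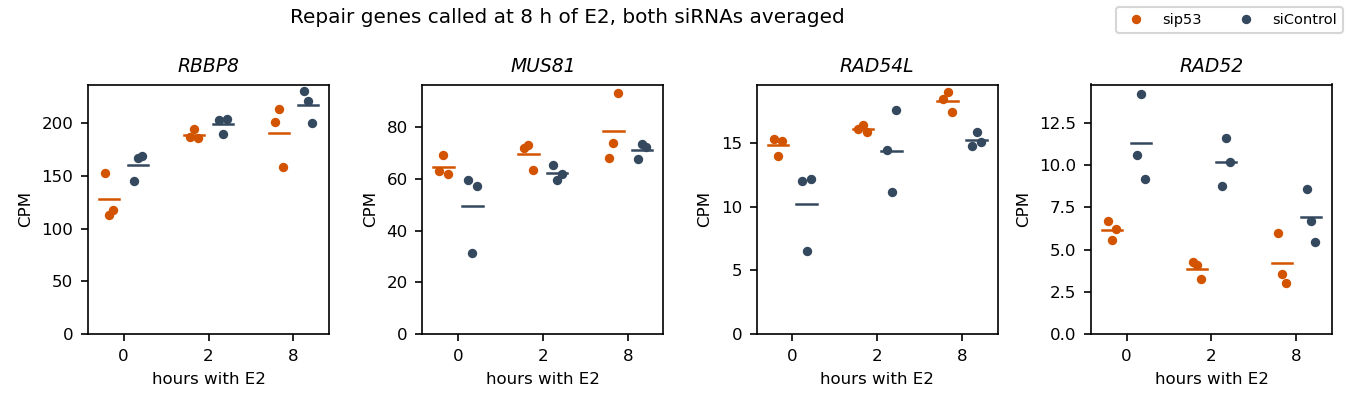
CPM in each sample against hours with E2 for the 4 genes called at 8 h with both siRNAs averaged, with sip53 samples left of siControl samples. Short lines are means of 3 samples. RBBP8 is above its 0 h samples in every treated sample of both siRNAs, while in MUS81 and RAD54L 1 siControl 0 h sample lies far below the others, at 31.3 and 6.54 CPM.

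BRCA1 and BRCA2 were not called in any E2 comparison. With both siRNAs averaged, BRCA1 had a change of -0.17 ± 0.06 at 2 h (edgeR adjusted p = 0.192, 95% interval -0.30 to -0.05) and -0.06 ± 0.06 at 8 h (edgeR adjusted p = 0.615). BRCA2 had a change of -0.31 ± 0.15 at 2 h (edgeR adjusted p = 0.326) and -0.38 ± 0.15 at 8 h (edgeR adjusted p = 0.113). FANCM came closest to the threshold among genes not called at 8 h, at -0.44 ± 0.14 (edgeR adjusted p = 0.0515).

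The third question was whether the E2 response differs between the siRNAs, tested as the response in sip53 cells minus that in siControl cells. Among the 39 genes 0 were called by edgeR at 2 h and 0 at 8 h, against 0% of all genes at both times. An unadjusted p under 0.05 was found for 0 of the 39 at each time, and for 451 and 583 of all genes. DESeq2 called 0 of the 39 at each time, and 1 and 2 of all genes. For RBBP8 the difference was 0.25 ± 0.17 at 2 h (95% interval -0.08 to 0.57) and 0.14 ± 0.17 at 8 h (95% interval -0.19 to 0.46). For BRCA2 it was -0.53 ± 0.30 at 2 h (95% interval -1.11 to 0.06). With 3 samples a group, differences of any size inside these intervals are not excluded for either gene.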

How the data were processed

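RNA from 18 PEO1 samples was read with QuantSeq 3′ libraries. The deposited table holds expected counts per set of Ensembl transcripts, made by the authors with cutadapt, Bowtie2 and RSEM 1.3.3 on hg19, per the submitters' processing notes, and the annotation and the strand setting of the counting are not given in the sources used here. Rounding moved 0 of them. The 57736 rows were named through GENCODE v29 on GRCh38 (52673 by 1 gene, 267 by a majority, 154 with no majority, 4642 without a match), so coordinates printed are GRCh38. Rows without a name held 0.635% of counts. In edgeR 4.0.16 (R 4.3.3), filterByExpr with a minimum count of 10 left 15318 rows, libraries were scaled by TMM, and a quasi-likelihood model (glmQLFit, glmQLFTest) with 1 coefficient per group was fitted to all 18 libraries and tested on simulated data. In the simulation 200 of 15318 rows were changed. Log2 changes of -0.5 and 0.5 were called in 22% and 18% of such rows at 0 h, and in 64% and 66% averaged. Its counts were drawn from the fitted spread with far fewer rows changed than were called here, so its setting differs from the data. The biological coefficient of variation was 15.2%. For 12 contrasts, a gene was called at a Benjamini-Hochberg adjusted p under 0.05 over all rows. Contrasts with shared groups, such as the average and its single times, are not independent. Replicates were not copies of 1 library (chi-square per degree of freedom 4.04 to 22.9).

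The members and lists were chosen with earlier results of these data known. Any of the 39 could be named, with values in every sample or the lowest, median and highest of 9 per siRNA. Of the other lists, up to 4 called genes per direction with the smallest adjusted p were named, or the 3 with the smallest p where none was called. E2F1 and POLA1 come from the replication list. The level of the targeted gene and 2 further genes of the lists are not reported here. Alternatives were RLE and upper-quartile scaling, no filter, a minimum count of 30, a replicate block, removal of length and GC trends by loess (span 0.3, with both values for 97.6% of rows), a fit to only the groups compared, DESeq2 1.42.0, and leaving out each library. Sequences are from RefSeq, GRCh38.p14. The last exons of 10 of the 39 genes overlap another gene's exon, and 4 genes have pseudogene copies by name (MRE11, RBBP8, RPA2 and FANCD2), so their counts are uncertain.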

Additional observations from a re-analysis of the deposited data

How the results depend on the processing

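In the averaged knockdown comparison 24 genes were called, 15 with length and GC trends removed and 14 when the replicate block was added to that. At 0 h the count of 8 became 4, 5 and, in the fit to only the groups compared, 1, and the median of -0.27 became -0.19 with length and GC trends removed and -0.16 with the block added. At 8 h the count of 6 became 3 and 2, and the median of -0.18 became -0.08 in both. For E2 in sip53 cells the count of 1 became 2 at 2 h and 2 at 8 h with no filter, and 0 at 8 h with only the groups compared. At 8 h in siControl cells it became 0 with upper-quartile scaling, the block, the block with trends removed, and only the groups compared, and 2 with no filter, with trends removed and with DESeq2. With both siRNAs averaged the count of 1 at 2 h became 2 with no filter, and the count of 4 at 8 h became 1 with only the groups compared. The causes of these shifts were not tested.

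With 1 library left out, counts ranged from 1 to 13 at 0 h, 6 to 12 at 2 h, 0 to 6 at 8 h and 20 to 24 averaged, and medians from -0.28 to -0.22, -0.14 to -0.04, -0.21 to -0.11 and -0.19 to -0.14. In sip53 cells E2 counts ranged from 0 to 1 at both times, with medians from -0.13 to -0.05 at 2 h and -0.08 to 0.01 at 8 h. In siControl cells they ranged from 0 to 0 and 0 to 2, with medians from -0.18 to -0.06 and -0.15 to -0.07. With both averaged they ranged from 1 to 2 and 1 to 7, with medians from -0.18 to -0.10 and -0.13 to -0.04. The difference between siRNAs held 0 calls, with medians from -0.03 to 0.07 at 2 h and 0.02 to 0.11 at 8 h.

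No called gene changed sign under any alternative run. Same-numbered samples of different groups did not deviate together (45 pairs, correlation -0.15 to 0.21, median 0.01, 3 over 0.1), so the numbers are not treated as pairs. With the replicate block 23 of the 24 averaged calls were kept. At low depth, as for RAD51B, RAD51D and FANCC, the intervals were wide, so changes of any size inside them are not excluded.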

Other observations

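Repair routes outside homologous recombination also held calls in both directions between sip53 and siControl cells, averaged over the 3 times, where 16.1% of all genes were higher and 18.5% lower. Of 13 genes listed under end joining without homology 2 were higher and 4 lower, and XRCC1 and LIG3 on that list are not particular to that route. PRKDC, the kinase of that route, was lower, at -0.65 ± 0.10 (edgeR adjusted p = 4.95e-05), as were XRCC4, which holds its ligase, at -0.77 ± 0.16 (edgeR adjusted p = 0.000857), LIG3 at -0.35 ± 0.07 and APLF at -0.54 ± 0.13 (edgeR adjusted p = 0.000853 and 0.00187). XRCC1, a scaffold for repair of single-strand breaks, was higher by 0.48 ± 0.07 (edgeR adjusted p = 1.52e-05), and PAXX by 0.30 ± 0.09 (edgeR adjusted p = 0.0131). Of 27 genes of damage signalling and pathway choice 4 were higher and 13 lower. RIF1 and TP53BP1, which restrain resection, were lower, at -0.64 ± 0.08 and -0.39 ± 0.07 (edgeR adjusted p = 3.15e-06 and 8.84e-05). RNF8, a ubiquitin ligase at breaks, was lower, at -0.59 ± 0.09 (edgeR adjusted p = 3.27e-05), and TOPBP1, which activates ATR, at -0.42 ± 0.07 (edgeR adjusted p = 7.96e-05). BABAM1, BABAM2, RAD1 and RNF168 were higher by 0.25 ± 0.05, 0.28 ± 0.10, 0.25 ± 0.07 and 0.17 ± 0.07 (edgeR adjusted p = 0.00118, 0.0302, 0.00917 and 0.0481).

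Of 15 genes of nucleotide excision repair 3 were higher and 5 lower. XPC, the damage sensor and a known p53 target, was lower, at -0.44 ± 0.06 (edgeR adjusted p = 1.79e-05), as were XPA, ERCC6 and ERCC5 at -0.56 ± 0.10, -0.54 ± 0.11 and -0.30 ± 0.08 (edgeR adjusted p = 0.000223, 0.00039 and 0.00405). GTF2H4, ERCC2 and DDB1 were higher by 0.32 ± 0.09, 0.36 ± 0.12 and 0.16 ± 0.06 (edgeR adjusted p = 0.00893, 0.0262 and 0.032). Of 15 genes of base excision repair 4 were higher and 3 lower. UNG and NEIL2, which remove damaged bases, were higher by 0.30 ± 0.05 and 0.56 ± 0.13 (edgeR adjusted p = 0.000205 and 0.00149), and TDG, APEX1 and POLB were lower, at -0.37 ± 0.07, -0.46 ± 0.14 and -0.28 ± 0.09 (edgeR adjusted p = 0.00015, 0.0106 and 0.0148). Of 7 mismatch repair genes 0 were higher and 3 lower, which were MSH3, PMS1 and PMS2 at -0.28 ± 0.07, -0.35 ± 0.12 and -1.38 ± 0.37 (edgeR adjusted p = 0.00211, 0.0284 and 0.0054). PMS2 has many pseudogene copies and is uncertain.

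At 8 h of E2 with both siRNAs averaged, 3 of 32 replication genes were higher and 1 lower, against 5.16% and 4.44% of all genes. PCNA, the polymerase clamp, was higher by 0.41 ± 0.09 (edgeR adjusted p = 0.00689), CCNE2 by 0.54 ± 0.13 (edgeR adjusted p = 0.00854) and RRM2 by 0.34 ± 0.08 (edgeR adjusted p = 0.00936), and POLD1 was lower, at -0.60 ± 0.18 (edgeR adjusted p = 0.0345). Of 24 mitosis genes 1 was higher and 3 lower, against the same shares. CENPA was higher by 0.57 ± 0.12 (edgeR adjusted p = 0.00355). AURKA, CENPE and CDC20 were lower, at -0.41 ± 0.08, -0.41 ± 0.09 and -0.25 ± 0.07 (edgeR adjusted p = 0.00118, 0.00498 and 0.0173). On the end joining list 2 of 13 were lower. APLF was at -0.73 ± 0.16 (edgeR adjusted p = 0.00401) and LIG3 at -0.32 ± 0.09 (edgeR adjusted p = 0.029). RNF168 (1 of 27 damage signalling genes) was lower, at -0.30 ± 0.08 (edgeR adjusted p = 0.02). So was ERCC6 (1 of 15 nucleotide excision genes), at -0.55 ± 0.13 (edgeR adjusted p = 0.00784). SLX1A (1 of 32 other pathway genes) was higher by 0.28 ± 0.09 (edgeR adjusted p = 0.0433).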
